A study of Mus musculus with 5 samples.

Results

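Adrenergic receptors and the cAMP machinery that they feed were described here through 9 genes, taken by name from 53700 genes in the table with vehicle and T3 libraries and from 55416 genes in the table with high-fat diet libraries. All 9 were found in both tables. They encode the receptors Adrb1, Adrb3, Adra2a and Adora1, the stimulatory G protein subunit Gnas, the protein kinase A (PKA) subunits Prkaca and Prkar2b, and the phosphodiesterases Pde3b and Pde4d. The tissue was mouse inguinal fat (iWAT), a subcutaneous white depot, and its RNA was sequenced. There were 5 groups with 1 library each. ATRβKO mice, which per the series title concern the adipocyte thyroid hormone receptor β (gene Thrb), and floxed mice, which carry a gene flanked by recombination sites, were both given T3, the active thyroid hormone. Further floxed mice were given PBS as vehicle. Injections were daily for 7 days, tissue was taken 24 hours after the last, and each of these 3 libraries held tissue pooled from 3 mice on normal food. A second pair, ATRβKO and floxed, was fed a high-fat diet (HFD) for 2 to 3 months, and whether these libraries were pooled is not given in the sources used here. What drives recombination, and the age and strain of the mice, are not given in the sources used here.

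Noradrenaline from sympathetic nerves acts on β-adrenergic receptors of the adipocyte. These activate the stimulatory G protein, adenylyl cyclase makes cAMP, and cAMP releases the catalytic subunits of PKA from their regulatory subunits. PKA then phosphorylates lipolytic proteins and, in thermogenic adipocytes, drives expression of the uncoupling protein Ucp1. The α2-adrenergic receptors and the adenosine A1 receptor act through inhibitory G proteins against cAMP formation, and phosphodiesterases degrade cAMP. Rodent white fat is known for a high level of the β3 receptor. Thyroid hormone is known to act together with catecholamines on heat production in fat.

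Values are FPKM, fragments normalized to transcript length and library size, so levels of different genes can be set side by side. With 1 library per group there was no spread between animals, no test and no p-value, and whether groups overlap cannot be told. Calls rest on size: a gene counts as higher or lower at a log2 ratio of 1 or more in either direction (2-fold), after adding 1 to each FPKM, if the higher library has at least 1 FPKM. In bulk tissue, fewer cells of a type and less RNA per cell cannot be told apart. The library labelled ATRβKO (T3) is named by its label, because Thrb was at 4.26 FPKM there, 4.43 in floxed T3 and 4.44 in floxed vehicle. Such a gene-level value cannot check the label, since truncated transcripts and transcripts from other cell types are counted too. Estimated depth, from the smallest steps of single-exon genes, was about 11700000 to 13400000 fragments in the vehicle and T3 libraries and 18800000 in floxed HFD.

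The sequences below are the 250 bases before the transcription start of Adora1, Adrb1 and Prkaca, the 3 genes with the lowest log2 ratio of the library labelled ATRβKO (T3) to floxed T3. They were copied from RefSeq (build GRCm38.p6, while the submitters' processing notes name GRCm39) and run 5′ to 3′ on the strand of the gene. Adora1 is at chr1:134235458-134235707 on the minus strand, Adrb1 at chr19:56721867-56722116 on the plus strand and Prkaca at chr8:83972728-83972977 on the plus strand. Capitals mark TGACG or its reverse complement CGTCA, the core of the cAMP response element.
Adora1: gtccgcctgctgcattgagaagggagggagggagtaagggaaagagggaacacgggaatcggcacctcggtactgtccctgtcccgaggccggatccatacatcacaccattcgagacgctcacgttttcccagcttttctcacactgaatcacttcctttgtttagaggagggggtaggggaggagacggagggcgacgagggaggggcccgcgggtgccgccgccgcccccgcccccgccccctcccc
Adrb1: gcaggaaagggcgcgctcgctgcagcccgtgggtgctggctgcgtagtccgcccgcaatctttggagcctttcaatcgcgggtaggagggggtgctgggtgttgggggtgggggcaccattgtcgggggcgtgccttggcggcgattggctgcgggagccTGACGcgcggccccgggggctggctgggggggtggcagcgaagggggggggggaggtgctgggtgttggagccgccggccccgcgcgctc
Prkaca: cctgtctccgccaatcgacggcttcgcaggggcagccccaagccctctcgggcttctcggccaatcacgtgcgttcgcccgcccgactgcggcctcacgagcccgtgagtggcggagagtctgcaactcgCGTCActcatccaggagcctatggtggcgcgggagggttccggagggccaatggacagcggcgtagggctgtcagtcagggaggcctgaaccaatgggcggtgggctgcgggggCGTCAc
The Prkaca window shown held 2 such cores, which begin 120 and 6 bases before the start, the Adrb1 window held 1, which begins 90 bases before the start, and the Adora1 window shown held none. RefSeq gives a second start, with a window of its own, for Prkaca and for Adora1, and neither of these held the core. Of 32851 RefSeq windows of this length, 17.8% held at least 1, counted on both strands. RefSeq windows were matched for 7 of the 9 genes, 13 windows in all, and 6 of the 13, from 4 of the 7 genes (Adrb1, Adra2a, Gnas and Prkaca), held the core. The windows of a gene are not independent, since 2 of the Gnas windows overlap and hold the same site. The 6 windows with the core had 63.2% to 80% of bases as G or C, against a median of 52.4% over all windows. Shares of all windows given here were not matched for that composition. Of the 13 windows, 5 overlap no exon. The full element TGACGTCA, which contains the core, was in none of the 13 and in 1.55% of all windows. The core of thyroid hormone response elements, AGGTCA, was in none of the 13 and in 14% of all windows, and its direct repeat DR4, which contains it, was in 5 windows of all and in none of the 13. A match or its absence describes letters in these windows and says nothing of binding.

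None of the 9 genes passed the size rule in any of the 3 comparisons among the vehicle and T3 libraries. In the library labelled ATRβKO (T3) against floxed T3, 4.04% of 14988 genes were called higher and 2.02% lower. In floxed T3 against floxed vehicle, 2.3% of 15031 genes were called higher and 3.98% lower. In the library labelled ATRβKO (T3) against floxed vehicle, 1.83% of 15175 genes were called higher and 1.79% lower. At these shares a count of 0 in 9 is near the background. At 1.5-fold, Adora1 and Adrb1 passed as lower between genotypes under T3, where 13.4% of all genes were higher and 5.06% lower, and no other of the 9 genes passed in any comparison. The shares of all genes at 1.5-fold were 5.23% higher and 14% lower in floxed T3 against floxed vehicle, and 4.35% higher and 4.32% lower in the library labelled ATRβKO (T3) against floxed vehicle. The library labelled ATRβKO (HFD) was kept out, since 47.7% of genes were called higher and 32% lower in it than in floxed HFD. The split of all called genes moved with the scaling. It was 606 higher and 303 lower for genotype, against 412 and 419 after rescaling to a median log2 ratio of 0, and 346 higher and 598 lower for T3, against 502 and 422 after that rescaling.

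The sizes of the ratios were small for most of the 9 genes. Their median log2 ratio was -0.24 for the library labelled ATRβKO (T3) over floxed T3, where the median of all genes was 0.18. It was -0.06 for floxed T3 over floxed vehicle, where the median of all genes was -0.21, and -0.17 for the library labelled ATRβKO (T3) over floxed vehicle, where that of all genes was -0.03. Against these medians, 8 of the 9 genes lay below in the first comparison and 8 of the 9 above in the second. These comparisons share the floxed T3 library, on opposite sides of the ratio. Of the 9 genes, 6 in the first, 9 in the second and 9 in the third comparison had a log2 ratio within 0.5 of 0, as did 75.6%, 74.2% and 88.8% of all genes. The largest log2 ratio among the 9 was -0.61, of Adora1 in the first comparison, and 82.6% of all genes had a smaller one in absolute value.

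**Figure D1:**
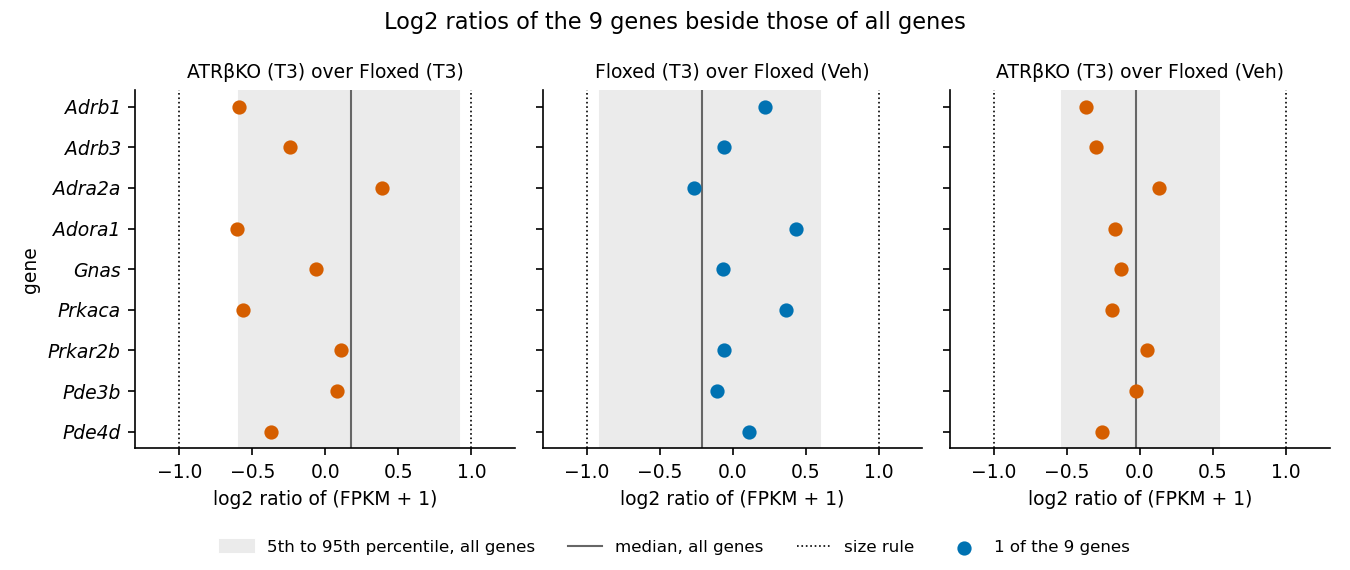
Log2 ratios of FPKM plus 1 for the 9 genes (points) in 3 comparisons, with the median (grey line) and the 5th to 95th percentile (grey band) of all genes and the size rule (dotted lines). Every point lies between the dotted lines, and in the left panel Adora1 lies at -0.61, Adrb1 at -0.59 and Prkaca at -0.56, near the lower edge of the band at -0.59.

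The β3-adrenergic receptor was far above the other adrenergic receptors described here in level and differed little between the T3-table libraries. Adrb3 (ENSMUSG00000031489) was at 135 FPKM in the library labelled ATRβKO (T3), 160 in floxed T3 and 167 in floxed vehicle. The highest and the lowest of these 3 differ by a ratio of 1.24. The log2 ratio was -0.24 between genotypes under T3 and -0.06 between T3 and vehicle, and the second reached 0.18 under rescaling. The first ran from -0.45 to -0.17 over the pseudocounts and scalings tried, and 13.4% of all genes had a lower ratio than -0.24. By rank Adrb3 was the 645th most abundant gene in the library labelled ATRβKO (T3), the 515th in floxed T3 and the 502nd in floxed vehicle. Floxed HFD stood at 119 FPKM and rank 852, the lowest of the 4 libraries by level and by rank. A predicted gene, Gm45470, overlaps Adrb3 exons on the other strand and was at 3.94 to 5.08 FPKM in these libraries.

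Adrb1, the β1-adrenergic receptor, was near the floor of the size rule. Adrb1 (ENSMUSG00000035283) was at 0.83 FPKM in the library labelled ATRβKO (T3), 1.75 in floxed T3 and 1.36 in floxed vehicle. The plain ratio of the library labelled ATRβKO (T3) to floxed T3 was 0.47, past 2-fold, while the log2 ratio with the pseudocount was -0.59. That log2 ratio ran from -0.99 to -0.21 over the pseudocounts and scalings tried. At the estimated depth these levels stand for about 36, 79 and 54 fragments, and counting error alone gives a 95% interval of 0.31 to 0.71 for that plain ratio and of 0.89 to 1.85 for floxed T3 over floxed vehicle. Such intervals cover counting error only, rest on transcript lengths from GENCODE M21 and say nothing of the spread between animals. Floxed HFD was at 1.26 FPKM, close to 1.36 in floxed vehicle.

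Adra2a, the inhibitory α2A receptor, was as low as Adrb1. Adra2a (ENSMUSG00000033717) was at 1.36 FPKM in the library labelled ATRβKO (T3), 0.80 in floxed T3 and 1.16 in floxed vehicle, and thus lowest in floxed T3. About 85, 52 and 66 fragments lie behind these values. The 95% counting interval of the ratio was 1.18 to 2.43 for the library labelled ATRβKO (T3) over floxed T3 and 0.47 to 1.01 for floxed T3 over floxed vehicle. In floxed HFD Adra2a was at 0.34 FPKM, from about 31 fragments, with a counting interval of 0.23 to 0.48. That of floxed vehicle was 0.90 to 1.49. These intervals cover counting error only, and the T3 and HFD tables may have been normalized separately, so they do not set the groups apart. Adrb3 FPKM was 99.5 times that of Adra2a in the library labelled ATRβKO (T3), 201 times in floxed T3 and 144 times in floxed vehicle, and 349 times in floxed HFD.

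Adora1, the adenosine A1 receptor, which restrains lipolysis, had the widest spread among the members above 10 FPKM. Adora1 (ENSMUSG00000042429) was at 22.8 FPKM in the library labelled ATRβKO (T3), 35.2 in floxed T3 and 25.7 in floxed vehicle. Floxed T3 was thus the highest of the 3, and the other 2 lay close together. The log2 ratio was -0.61 between genotypes under T3, lower than in all but 4.85% of genes, and 0.44 between T3 and vehicle, where 92.4% of genes had a lower ratio. These ratios kept their sign under each pseudocount and scaling tried, from -0.80 to -0.53 and from 0.37 to 0.67. In floxed HFD Adora1 was at 58.8 FPKM, the highest of the 4 libraries, and its rank there was 1675, against 3793 in floxed vehicle. Mybph, a muscle gene that overlaps Adora1 on the other strand, was at 1.91, 0.73 and 1.92 FPKM in the library labelled ATRβKO (T3), floxed T3 and floxed vehicle, lowest where Adora1 was highest among these 3, and at 6.39 in floxed HFD, where both were highest.

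**Figure D2:**
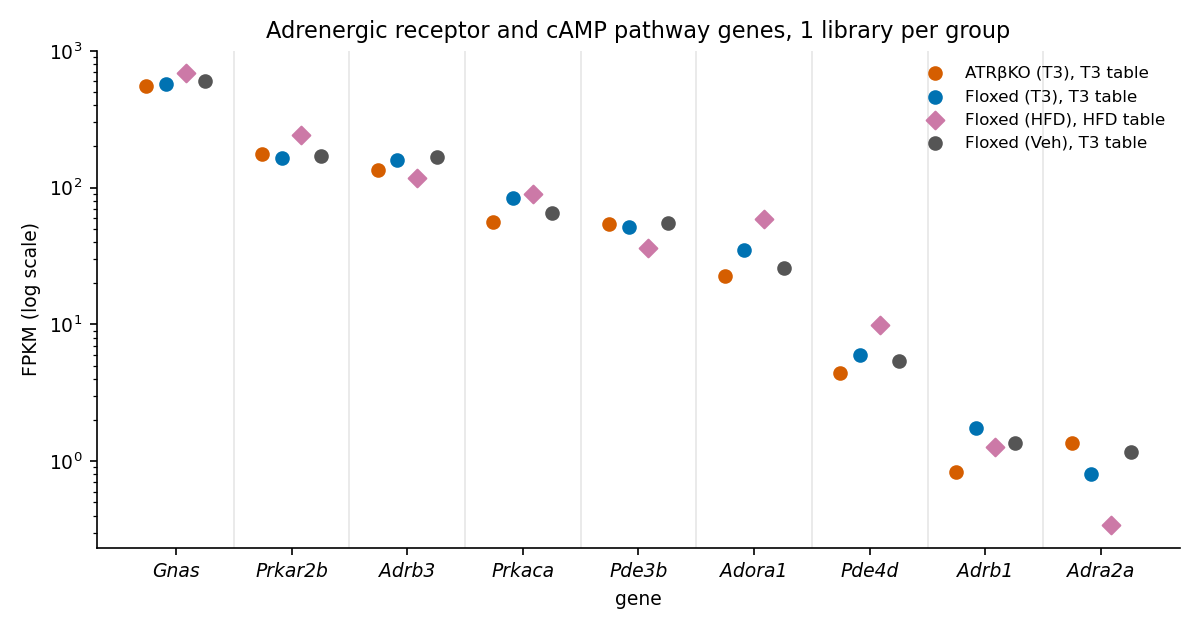
FPKM of the 9 genes on a log axis, with 1 point per library (circles, T3 table, and diamonds, floxed HFD from the separately deposited HFD table). Gnas, Prkar2b and Adrb3 lie above 100 FPKM in all 4 libraries, Adrb1 and Adra2a lie between 0.34 and 1.75, and Adora1 is highest in floxed HFD at 58.8.

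Gnas, which encodes the stimulatory G protein α subunit, was the most abundant of the 9 genes and differed little between the T3-table libraries, as did Prkar2b and Pde3b. Gnas (ENSMUSG00000027523) was at 553 FPKM in the library labelled ATRβKO (T3), 577 in floxed T3 and 605 in floxed vehicle. In rank it was 174th, 149th and 160th. Floxed HFD stood at 685 FPKM and rank 138, the highest of the 4. The locus has several promoters and 24 transcripts in GENCODE M21, and a value per gene sums them. Its antisense gene Nespas was at no more than 0.08 FPKM in the 4 libraries.

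The catalytic subunit Prkaca, the kinase itself, followed the order of Adora1. Prkaca (ENSMUSG00000005469) was at 56.5 FPKM in the library labelled ATRβKO (T3), 83.9 in floxed T3 and 64.8 in floxed vehicle. Floxed T3 was again the highest and the other 2 lay closer to each other than to it. The log2 ratio was -0.56 between genotypes under T3 and 0.37 between T3 and vehicle, and ran from -0.76 to -0.49 and from 0.30 to 0.60 over the pseudocounts and scalings tried. Of all genes, 5.39% had a lower ratio in the first of these comparisons and 90.9% in the second. Floxed HFD was at 89.5 FPKM.

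Prkar2b, the RIIβ regulatory subunit that is typical of adipocytes, did not follow Prkaca. Prkar2b (ENSMUSG00000002997) was at 177 FPKM in the library labelled ATRβKO (T3), 165 in floxed T3 and 171 in floxed vehicle, with log2 ratios of 0.11 between genotypes under T3 and -0.06 between T3 and vehicle that change sign with the scaling. Its rank was 484, 504 and 486 in the same order. Floxed HFD was at 244 FPKM and rank 428, the highest of the 4 by both.

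Within the PKA family the paralogs were shared out differently between the libraries, and a share within a library does not depend on how that library was scaled. Prkaca made up 67.2% of the summed FPKM of Prkaca and Prkacb in the library labelled ATRβKO (T3), 78.1% in floxed T3 and 68.5% in floxed vehicle. The share in floxed HFD was 88.5%. Prkacb, the other catalytic subunit, ran the other way, at 27.6 FPKM in the library labelled ATRβKO (T3), 23.5 in floxed T3 and 29.7 in floxed vehicle, and at 11.7 in floxed HFD. Its log2 ratios of 0.22 between genotypes under T3 and -0.32 between T3 and vehicle lay near the medians of all genes, 0.18 and -0.21. At the least, over the pseudocounts and scalings tried, they were 0.03 and -0.10. Prkar2b made up 61.7% of the 4 regulatory subunits in the library labelled ATRβKO (T3), 62.1% in floxed T3 and 60.7% in floxed vehicle, and 73.4% in floxed HFD. The second largest, Prkar1a, was at 93.9, 85.9 and 96.8 FPKM in those 3 libraries and at 73.7 in floxed HFD. Regulatory subunits thus kept nearly the same make-up in the T3 table, and floxed HFD stood apart with more Prkar2b. Prkacb and Prkar1a are expressed in many cell types, while the adipocyte share of these levels was not measured.

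The balance of catalytic to regulatory PKA subunits, a quantity chosen after the values were seen, was 0.29 in the library labelled ATRβKO (T3), 0.40 in floxed T3 and 0.33 in floxed vehicle, as summed FPKM of 2 catalytic over 4 regulatory genes. Floxed HFD was at 0.30. Floxed T3 was the highest of the 4. The sum of regulatory subunits was 288 FPKM in the library labelled ATRβKO (T3), 265.5 in floxed T3 and 282 in floxed vehicle, and 332 in floxed HFD.

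**Figure D3:**
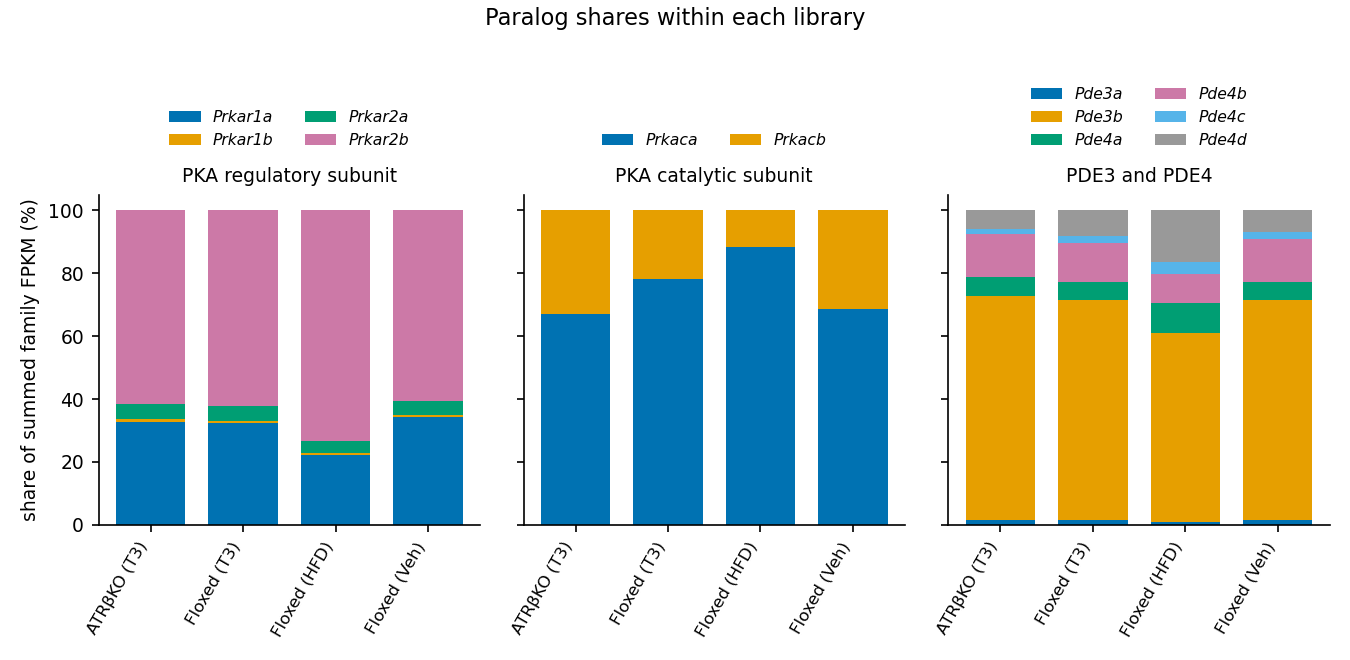
Share of each paralog in the summed FPKM of its family within a library (stacked bars, in percent), for PKA regulatory subunits, PKA catalytic subunits, and PDE3 and PDE4 genes. Prkaca takes 67.2% of the catalytic subunits in ATRβKO (T3), 78.1% in floxed T3, 88.5% in floxed HFD and 68.5% in floxed vehicle.

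Pde3b, the phosphodiesterase through which insulin lowers cAMP in adipocytes, was level across the T3 table. Pde3b (ENSMUSG00000030671) was at 54.3 FPKM in the library labelled ATRβKO (T3), 51.3 in floxed T3 and 55.4 in floxed vehicle, and its log2 ratios of 0.08 between genotypes under T3 and -0.11 between T3 and vehicle change sign with the scaling. Floxed HFD was at 36.4 FPKM, the lowest of the 4, and at rank 2613, against 1672 in floxed vehicle. Pde4d (ENSMUSG00000021699), a cAMP-specific phosphodiesterase, was at 4.39 FPKM in the library labelled ATRβKO (T3), 5.97 in floxed T3 and 5.44 in floxed vehicle, with log2 ratios of -0.37 between genotypes under T3 and 0.11 between T3 and vehicle. In floxed HFD it was at 9.95 FPKM, the highest of the 4. Both phosphodiesterases thus lay farther from the T3-table libraries in floxed HFD than those libraries lay from each other, in opposite directions.

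Pde3b made up 71.1% of the summed FPKM of the PDE3 and PDE4 genes in the library labelled ATRβKO (T3), 69.9% in floxed T3 and 69.8% in floxed vehicle, against 60.1% in floxed HFD. Pde4d made up 5.74% in the library labelled ATRβKO (T3), 8.13% in floxed T3 and 6.86% in floxed vehicle, and 16.5% in floxed HFD. Of the other paralogs, Pde4b was at 10.5, 9.27 and 10.8 FPKM in those libraries and at 5.51 in floxed HFD, and Pde4a at 4.68, 4.11 and 4.67 and at 5.75. Pde4c was at 1.38 to 2.29 and Pde3a at 0.62 to 1.33 FPKM over the 4 libraries.

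Floxed HFD was thus the library with the most distant values for several of the 9 genes. Adora1, Prkar2b, Prkaca, Gnas and Pde4d were each highest there, and Adrb3, Pde3b and Adra2a each lowest, while Adrb1 lay within the range of the other 3. The T3 and HFD tables were deposited separately and may have been normalized separately, so no ratio across them was called, and diet, its duration, injections and table cannot be told apart. By rank within its library, floxed HFD was likewise highest for Adora1, Prkar2b, Gnas and Pde4d and lowest for Adrb3, Pde3b and Adra2a. Prkaca was an exception, at rank 1129 in floxed HFD and 993 in floxed T3.

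The rest of the pathway was read from 15 lists of receptors, G proteins, cyclases, phosphodiesterases, kinase subunits and targets, which hold 138 further genes, 137 of them in the T3 table. In the library labelled ATRβKO (T3) against floxed T3, 117 could be compared, 2 were called higher and 3 lower, and their median log2 ratio of 0.18 equalled that of all genes. In floxed T3 against floxed vehicle, 116 could be compared, 2 were called higher and 1 lower, with a median of -0.16. In the library labelled ATRβKO (T3) against floxed vehicle, 0 of 117 were higher and 2 lower. These shares lie near those of all genes given above, or below them.

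**Figure D4:**
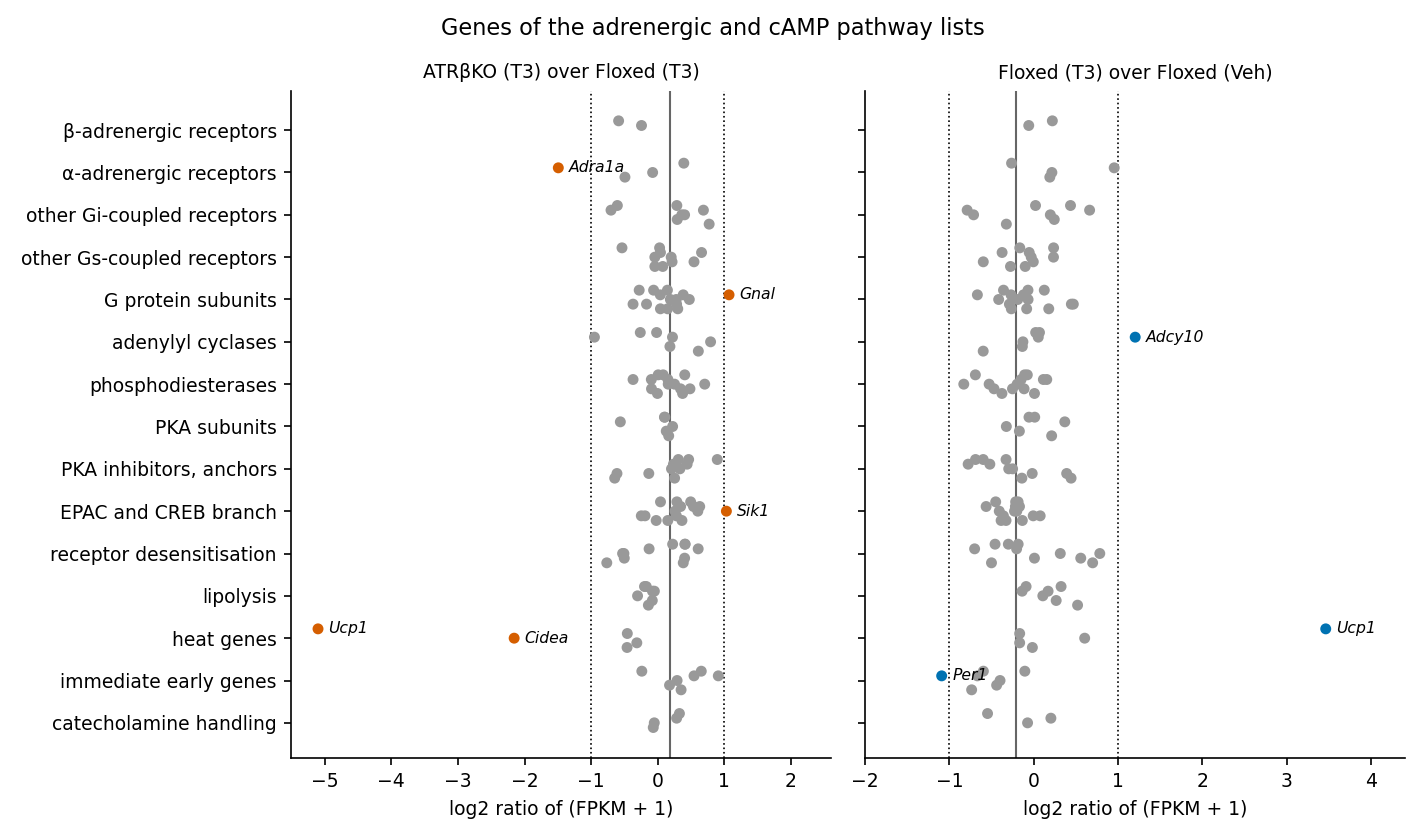
Log2 ratios of FPKM plus 1 for the genes of 15 pathway lists, members included, with 1 point per gene, the median of all genes (grey line) and the size rule (dotted lines). Named, coloured points passed the size rule: Adra1a, Gnal, Sik1, Ucp1 and Cidea on the left and Adcy10, Ucp1 and Per1 on the right.

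Among the receptors, Adra1a, the α1A-adrenergic receptor, which signals through calcium, was the one adrenergic receptor of these lists past the size rule. It was at 3.95 FPKM in the library labelled ATRβKO (T3), 12.9 in floxed T3 and 6.19 in floxed vehicle, and at 5.09 in floxed HFD. Its log2 ratio was -1.49 between genotypes under T3 and passed the rule under all 7 alternatives of pseudocount, floor and scaling. Between T3 and vehicle it was 0.95, short of the rule, which it passed under 3 of 7 alternatives. The floor alternatives cannot change the call of a gene above 5 FPKM in its higher library. They are thus no check for Adra1a, nor for Sik1 and Per1 below. Adra1d was at 3.08, 4.74 and 4.03 FPKM in the library labelled ATRβKO (T3), floxed T3 and floxed vehicle and Adra1b at 1.19, 1.31 and 0.99, while Adra2b and Adra2c stayed under 0.3 FPKM in these and in floxed HFD. Of the other receptors coupled to inhibitory G proteins, none passed. Ptger3, a prostaglandin E2 receptor, was at 29.9 FPKM in the library labelled ATRβKO (T3), 49.2 in floxed T3 and 30.7 in floxed vehicle, and at 76.5 in floxed HFD, the same order of the 4 libraries as Adora1.

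Further along the pathway single genes passed. Gnal, a stimulatory G protein α subunit best known from olfactory neurons, was at 2.17 FPKM in the library labelled ATRβKO (T3) and 0.51 in floxed T3, with 1.40 in floxed vehicle, and passed under 3 of 7 alternatives. Sik1, a salt-inducible kinase that cAMP induces, was at 16.99 FPKM in the library labelled ATRβKO (T3) and 7.81 in floxed T3, with 9.32 in floxed vehicle, and passed under 4 of 7. None of the membrane adenylyl cyclases passed. Adcy10, the soluble cyclase, was at 2.73 FPKM in floxed T3 and 0.62 in floxed vehicle, with 0.93 in the library labelled ATRβKO (T3), and passed under 5 of 7 alternatives. Adcy6, the most abundant cyclase in each of the 4 libraries, was at 36.1 FPKM in the library labelled ATRβKO (T3), 31.7 in floxed T3 and 34.9 in floxed vehicle, and at 43.4 in floxed HFD. Th and Dbh, which encode enzymes of noradrenaline synthesis, were listed at 0 in the 4 libraries, and noradrenaline itself was not measured.

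At the output end, known cAMP-induced genes and lipolysis genes had ratios of very different size and direction. Ucp1, the heat-producing uncoupling protein, was at 7.13 FPKM in the library labelled ATRβKO (T3), 278 in floxed T3 and 24.3 in floxed vehicle, and at 2.04 in floxed HFD. Cidea, a lipid droplet protein of thermogenic fat, was at 35.6 FPKM in the library labelled ATRβKO (T3), 162 in floxed T3 and 106 in floxed vehicle. Both were lower in the library labelled ATRβKO (T3) also when set against floxed vehicle, with log2 ratios of -1.64 for Ucp1 and -1.55 for Cidea. Ppargc1a and Dio2, further cAMP-induced genes, were at 1.20 and 0.21 FPKM in the library labelled ATRβKO (T3), 2.02 and 0.56 in floxed T3, and 2.39 and 0.24 in floxed vehicle. Ppargc1a passed in no comparison, and Dio2 was under the floor of 1 FPKM in each library. Of 8 immediate early genes 7 could be compared between T3 and vehicle, with 0 higher and 1 lower, beside 2.3% and 3.98% of all genes. The 1 was Per1, also a clock gene, at 13.0 in floxed T3 and 28.9 in floxed vehicle, past the rule under 4 of 7 alternatives. The median log2 ratio of the 7 was -0.60, beside -0.21 for all genes. Between genotypes under T3 that median was 0.35, beside 0.18, and none of the 7 passed. Phosphorylation of lipolytic proteins by PKA was not measured. The 7 lipolysis genes, among them the lipases Pnpla2 and Lipe, included none past the rule. Their median log2 ratio was -0.14 between genotypes under T3, beside 0.18 for all genes, and 0.17 between T3 and vehicle, beside -0.21. Lipe was at 468.5 FPKM in the library labelled ATRβKO (T3), 538 in floxed T3 and 573 in floxed vehicle. The plain ratio of floxed T3 to floxed vehicle was 11.4 for Ucp1, and for the 9 genes it ran from 0.69 for Adra2a to 1.37 for Adora1.

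Markers of other cell types moved with the libraries. Adipocyte markers were present throughout, with a sum over 12 genes of 25475 FPKM in the library labelled ATRβKO (T3), 21039 in floxed T3 and 27741 in floxed vehicle, and 36953 in floxed HFD. Adipoq, the adiponectin gene, was at 1482, 781 and 1498 FPKM in the first 3 of these. The fatty acid binding protein Fabp4 stood at 10682 FPKM in the library labelled ATRβKO (T3), 11288 in floxed T3 and 10033 in floxed vehicle. In floxed T3 against floxed vehicle 1 of the 12 was called lower and none higher, beside 3.98% and 2.3% of all genes, and 7 of the 12 had a log2 ratio above the median of all genes. The 1 was Cfd, the adipsin gene, at 8279 FPKM in the library labelled ATRβKO (T3), 4783 in floxed T3 and 11233 in floxed vehicle, which makes up most of the difference in the sum between floxed T3 and floxed vehicle. Of the 14 skeletal muscle markers, 13 were called lower in floxed T3 than in vehicle, beside 3.98% of all genes. Between genotypes under T3, 13 of the 13 compared were called higher in the library labelled ATRβKO (T3), beside 4.04% of all genes. The 14 summed to 2853 FPKM in the library labelled ATRβKO (T3), 618 in floxed T3 and 2821 in floxed vehicle, and to 12932 in floxed HFD. The 12 T cell markers summed to 246, 141 and 313 FPKM in those 3 libraries and to 15.6 in floxed HFD, and the 8 B cell markers to 318, 220.5 and 369 and to 2.06. The 10 macrophage markers summed to 2571, 1481 and 2039 and to 1313, the 10 progenitor and fibroblast markers to 3493, 1734 and 2579 and to 2253, and the 9 endothelial markers to 359, 446 and 355 and to 394. The 10 Schwann cell and nerve markers, of which Th was at 0 throughout, summed to 386, 268 and 375 and to 407, and the 8 mammary epithelial markers to no more than 3.54. Of the Schwann cell and nerve markers, 7 could be compared between genotypes under T3. Of these 7, 0 were called higher and 1 lower in the library labelled ATRβKO (T3), beside 4.04% and 2.02% of all genes, and 6 lay above the median of all genes. Floxed T3 thus held the lowest sums of muscle, lymphocyte, macrophage, fibroblast and Schwann cell markers in the T3 table. Its sum of endothelial markers was the highest there. The values of Adora1, Prkaca, Adrb1, Pde4d and Adra1a were highest in the T3 table in that same library. Those of Adra2a, Prkar2b and Pde3b were lowest in it, and those of Adrb3 and Gnas lay between. The part of these cell types in the values of the 9 genes was not tested.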

How the data were processed

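RNA sequencing of mouse iWAT gave 5 libraries, 1 per group, in 2 tables. Libraries were made by an Illumina TruSeq protocol with paired reads, per the labels' protocols. HISAT2, StringTie and GRCm39 are named, per the submitters' processing notes, with neither version nor setting. FPKM, made by the authors, is taken here as the unit of the deposited values. No header or label names that unit, which was inferred from non-integer values, unequal column sums and the naming of StringTie. Strand use in counting is not given in the sources used here.

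Ratios were made within the T3 table only, as log2 of FPKM plus 1, with Python 3.11.15, pandas 2.3.3 and NumPy 2.4.6. A gene was compared where the higher library had at least 1 FPKM and called at 2-fold. The size rule was checked on simulated data, with planted 4-fold changes in well-expressed genes only. That check does not bear on smaller changes, on genes near the floor or on spread between animals. Ranks for floxed HFD cover the 53271 genes in both tables. Depth was estimated from single-exon genes of GENCODE M21 (GRCm38), by name only and without coordinates of the files. Counting intervals for Adrb1 and Adra2a are exact Poisson or binomial intervals at 95% (SciPy 1.17.1) on fragments estimated from FPKM, exon length and that depth. Promoters came from RefSeq.

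The 9 genes and all lists were chosen with earlier results of these data known. Named genes were the 9 members, their paralogs in the lists, list genes past the size rule, leading markers, and Thrb and Thra. Some genes of the pathway, and shares that need them, are not reported here. Others, such as Ptger3 and Adcy6, were named after their values were seen. Thra was at 41.6 FPKM in the library labelled ATRβKO (T3), 32.7 in floxed T3 and 50.4 in floxed vehicle. Alternatives were a pseudocount of 0.1 or 5, a floor raised to 5 FPKM or dropped, rescaling by trimmed mean, by the median ratio or by column sum, 1.5-fold and 4-fold rules, and family shares without each paralog. The library labelled ATRβKO (HFD) was left out of all comparisons, because 47.7% of 17711 genes were called higher and 32% lower in it than in floxed HFD.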

Additional observations from a re-analysis of the deposited data

Results flagged for a closer look

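The library labelled ATRβKO (HFD) was in no comparison, and 3 of the 9 genes stood at least 2-fold above floxed HFD in it. Pde4d was at 710 FPKM in that library, against 9.95 in floxed HFD. Prkar2b was at 704 FPKM, against 244, and Pde3b at 86.5 FPKM, against 36.4. By the same rule 4 of the 9 were lower and 2 were neither. Of 17711 genes, 47.7% were called higher in that library and 32% lower.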

How the results depend on the processing

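No gene of the 9 passed the size rule in any of the 3 comparisons under either pseudocount or any of the 3 rescalings. Adrb1 came near the rule between genotypes under T3. Its log2 ratio there was -0.99 with a pseudocount of 0.1, -0.59 with 1 and -0.21 with 5. None passed under either floor or the 4-fold rule, but these could add no call. All 9 had already been compared, and none had reached 2-fold. Under a 1.5-fold rule, 2 of the 9 (Adora1 and Adrb1) were lower between genotypes under T3, as were 5.06% of all genes, and none passed elsewhere. Of the 27 log2 ratios of single members, 8 changed sign under a pseudocount or rescaling, all of them of Adrb3, Gnas, Pde3b or Prkar2b, and the other 19 did not.

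The difference in the share of Prkar2b between floxed T3 and floxed vehicle was 1.39 percentage points, and -0.56 without Prkar1a. For Pde3b it was 0.09 between floxed T3 and floxed vehicle, and 1.14 without Pde4d, and between genotypes under T3 it was 1.17, with 2.32 without Pde4b and -0.69 without Pde4d. The share of Prkaca, which differed by -10.9 points between genotypes under T3 and by 9.55 between T3 and vehicle, has 1 other paralog, so leaving it out gave no value. No paired analysis was possible because each group had 1 library, and for the same reason no replicate could be left out. Depth limits Adrb1 and Adra2a, which rest on fewer than 100 estimated fragments in each of the 4 libraries.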

Other observations

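In the library labelled ATRβKO (HFD), the other 6 genes were spread as well. Prkaca was at 106 FPKM there, against 89.5 in floxed HFD, Gnas at 324 against 685, Adora1 at 24.3 against 58.8, Adrb3 at 9.82 against 119 and Adra2a at 0.43 against 0.34. Adrb1 was listed at 0, against 1.26 in floxed HFD.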
